A study of Homo sapiens with 8 samples.

Results

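The respiratory chain passes electrons from NADH and succinate to oxygen, and ATP synthase uses the proton gradient it builds to make ATP. Most of their subunits are encoded in the nucleus, and the promoters of these genes are known for sites of NRF1, of the ETS factor GABP and of YY1, which are held to coordinate them with the mitochondrial genome. TAZ is a co-activator of the Hippo pathway that has no DNA-binding domain and reaches DNA with partner proteins, of which the TEAD factors are the best known. The members described here were taken by symbol from the protein-coding genes of GENCODE on chromosomes 1 to 22 and X, as the NDUFA, NDUFB, NDUFC, NDUFS and NDUFV genes, the UQCR genes, the COX genes numbered 4 to 8 with a letter A, B or C, SDHA to SDHD, and the ATP5F1, ATP5M and ATP5P genes. They were 86 of 19970 genes, with 39 in complex I (NADH dehydrogenase), 4 in complex II (succinate dehydrogenase), 9 in complex III (cytochrome bc1), 15 in complex IV (cytochrome c oxidase) and 19 in ATP synthase. The 86 symbols include 2 read-through genes, NDUFC2-KCTD14 and ATP5MF-PTCD1, which start at the promoters of NDUFC2 and ATP5MF, so the members stand for 84 loci. NDUFA4, which is now regarded as a subunit of complex IV, was counted with complex I by its symbol.

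TAZ ChIP-seq was performed in MCF10A, an immortalized mammary epithelial cell line, transduced with TAZ-4SA, a constitutively active TAZ that is switched on by doxycycline (Dox). Cells were left without Dox or received 0.05 µg/ml Dox for 24, 48 or 72 h, and each condition was assayed in 1 TAZ immunoprecipitation and 1 IgG immunoprecipitation, which gave 8 libraries. The antibody was raised to TAZ and not to a tag, so endogenous TAZ and TAZ-4SA cannot be told apart, and the sources used here do not say whether the line was a single clone. The processed data were 4 lists of peaks, 1 for each condition, and there were no replicates, so that times are compared through 1 library each and no test between them was possible. A peak was assigned to a gene when its summit, the base with the most fragments, lay within 1 kb of an annotated transcription start site (TSS). Fold enrichment is the authors' ratio of the ChIP signal at the summit to the local background. The 4 lists, in order of time, held 2431, 2469, 11767 and 38667 peaks. The genome background of each library was taken as the lowest local background solved among its listed peaks. It was 1.49, 1.42, 2.84 and 2.01 fragments in that order, and coverage outside the peaks was not measured. At these backgrounds a summit needed at least 9, 9, 12 and 9 fragments to be listed, and more where the local background was higher. A gene without a peak is therefore not shown to be free of TAZ.

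The first question was how many respiratory chain genes carried TAZ at their TSS at each time. Without Dox a TSS peak was found at 9 of the 86 members, or 10.5%, and 8.47% of all protein-coding genes had one. After 24 h the count was 2 members, or 2.33%, against 1.54% of all genes. After 48 h it was again 2 members, or 2.33%, against 5.13% of all genes. After 72 h it was 67 members, or 77.9%, against 53.6% of all genes. The members were thus few in the first 3 lists and a large majority in the last, and only at 72 h did their share stand well above that of all genes. These shares are descriptions of single libraries, and expression of the members in these cells was not analysed here.

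The lists in which a member was called fell into few patterns. A peak at 72 h alone was found at 57 members, or 66.3%, while 41.5% of all genes had this pattern. NDUFS7 was the single member called in all 4 lists, NDUFB3 was called without Dox, at 24 h and at 72 h, and 7 further members were called without Dox and at 72 h. UQCRHL was the single member called at 48 h and 72 h without a peak in the first list. The remaining 19 members, or 22.1%, were called in no list, against 46.0% of all genes.

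**Figure D1:**
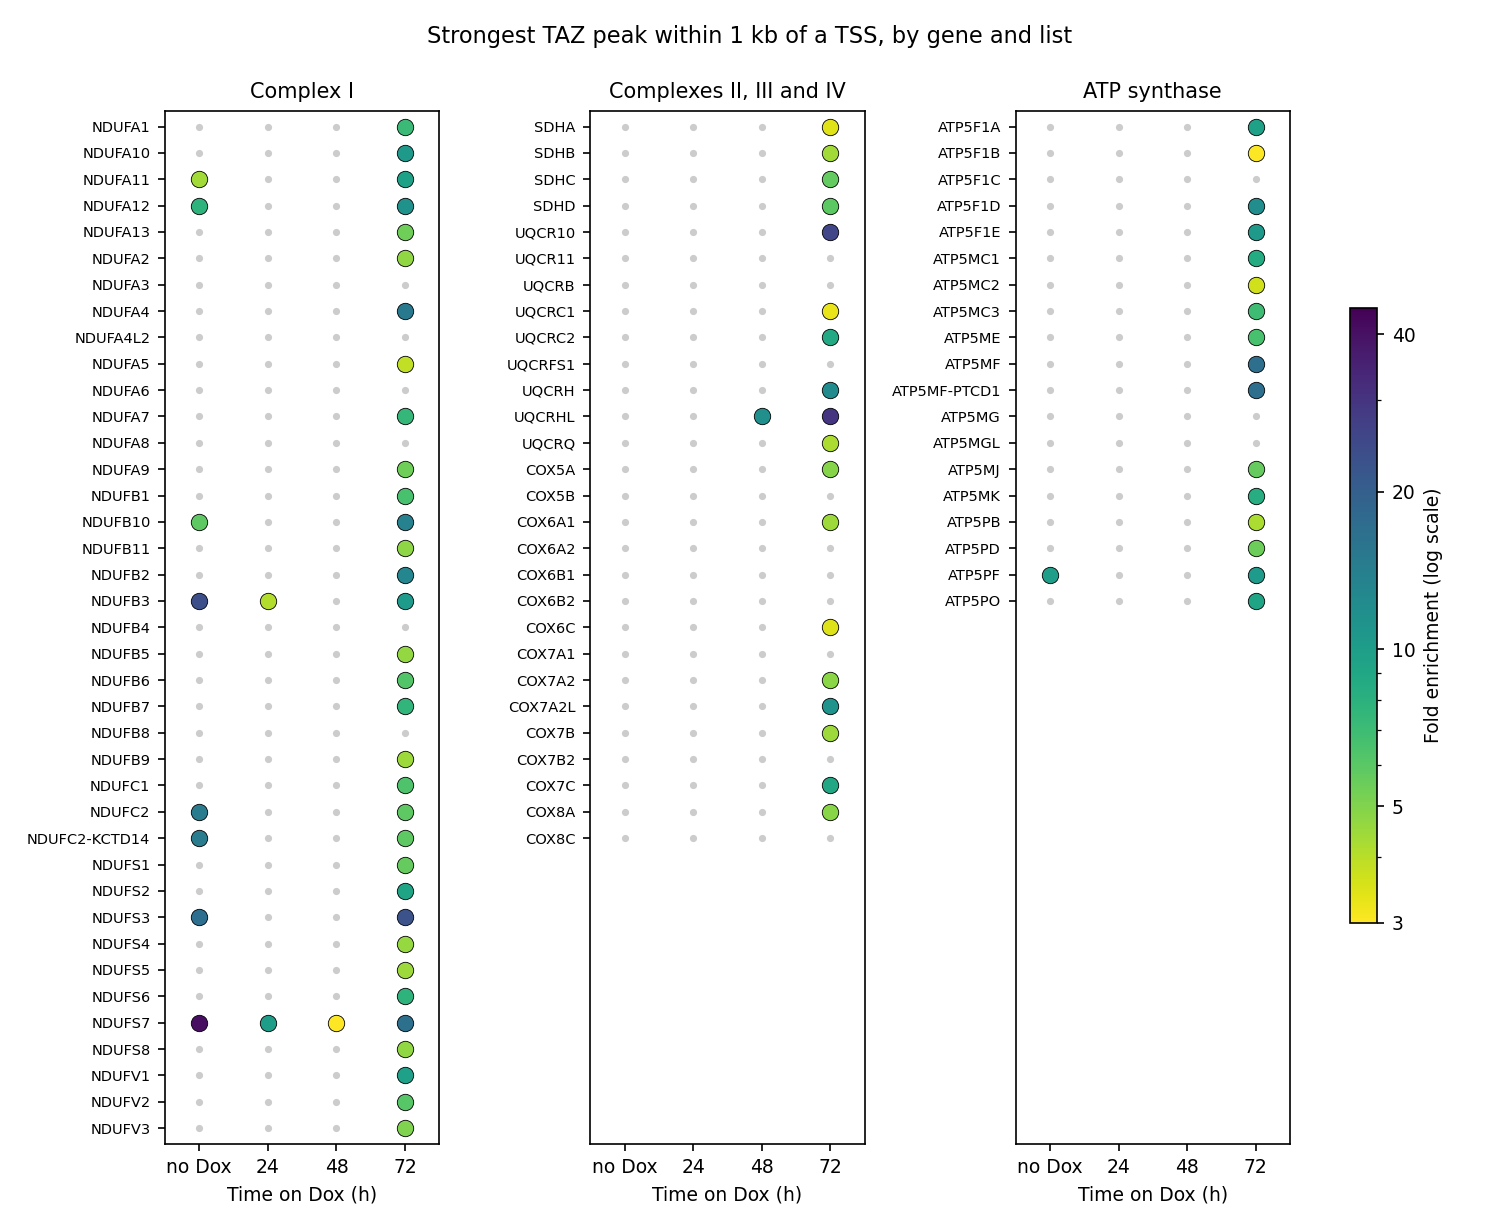
Each dot is 1 member in 1 peak list, with genes on the vertical axis and time on Dox in hours on the horizontal axis, and the colour gives the fold enrichment of its strongest TSS peak on a log scale from 2.94 in yellow to 40.5 in dark blue. Small grey dots mark no peak within 1 kb of a TSS, and the filled dots stand almost entirely in the column of 72 h, with 9 of them in the column without Dox, 8 of which belong to complex I.

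The second question was how the complexes compared. Genes were counted by symbol. The peak shared by NDUFC2 and NDUFC2-KCTD14, without Dox and at 72 h, therefore counts for 2 genes of complex I. That of ATP5MF and ATP5MF-PTCD1 at 72 h counts for 2 genes of ATP synthase. In complex I, 8 of 39 genes (20.5%) had a TSS peak without Dox, 2 had one at 24 h and 1 at 48 h, and the count reached 33 (84.6%) after 72 h. In ATP synthase the counts were 1, 0, 0 and 16 of 19 genes (84.2% at 72 h). In complex III they were 0, 0, 1 and 6 of 9 genes (66.7% at 72 h). Peaks without Dox were therefore found at complex I and at a single gene of ATP synthase, and at no gene of complexes II, III or IV. Complex IV had no peak before 72 h and then 8 of 15 genes (53.3%), which is the same share as that of all genes within 1 percentage point. Complex II also had no peak before 72 h, and then all 4 of its genes were called.

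Within complex I, the hydrophilic arm, which holds the NADH site and the iron-sulfur clusters, had peaks at 3 of 16 genes without Dox and at 15 of 16 at 72 h. The membrane arm, whose nuclear-encoded subunits surround the mitochondrially encoded proton pumps, had peaks at 4 of 20 genes without Dox and at 16 of 20 at 72 h. All 7 nuclear-encoded core subunits, those conserved from bacteria, were called at 72 h. Of the 5 catalytic F1 subunits of ATP synthase 4 were called at 72 h and none before. Each of these shares rests on few genes and 1 library a time.

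**Figure D2:**
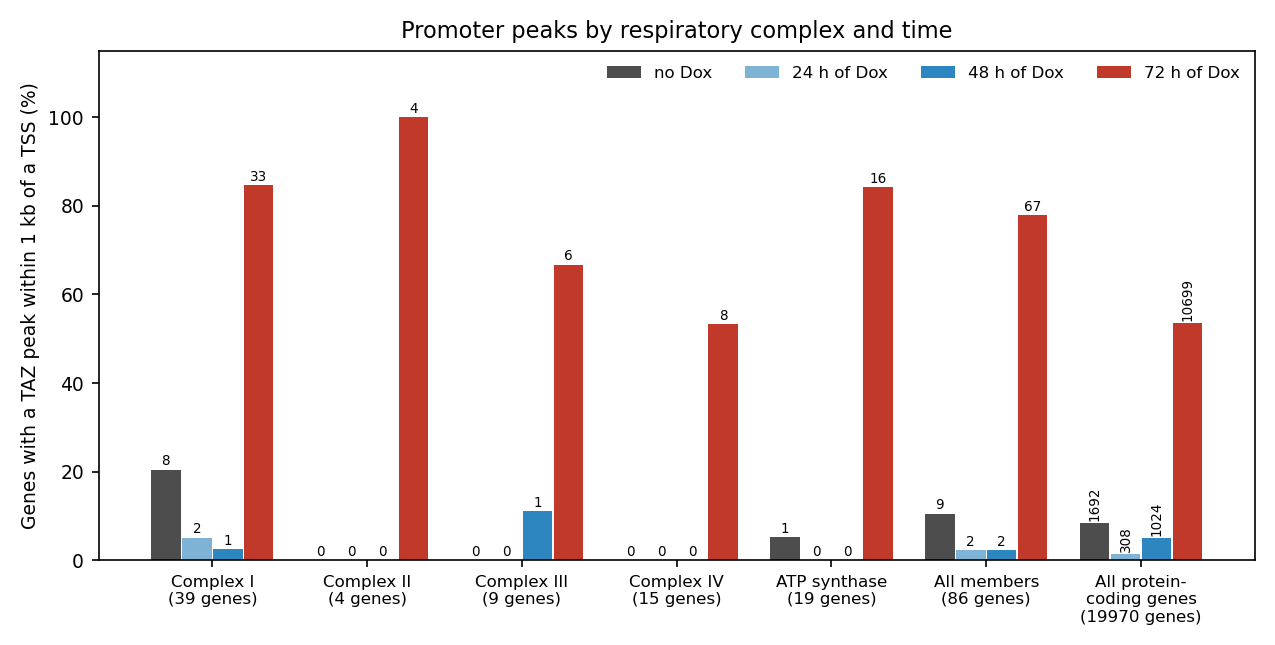
Bars give the percentage of genes with a TAZ peak within 1 kb of a TSS for each complex, for all 86 members and for all 19970 protein-coding genes, with 1 bar for each peak list and the number of genes above it. The 72 h bar is the highest in every group, from 53.3% in complex IV to 100% in complex II, and the bars of 24 h and 48 h reach at most 11.1%, in complex III at 48 h.

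The 9 members with a peak without Dox were all called again at 72 h, as were 96.3% of all genes with such a peak. At 24 h 2 of the 9 were called again, against 9.34% of all genes, and at 48 h 1 of the 9 was, against 15.8%. With 9 members these shares rest on 1 or 2 genes, and no difference from all genes can be read from them.

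NDUFS7, a core subunit that carries the last iron-sulfur cluster before ubiquinone, had the strongest peak of the members without Dox and the third highest fold enrichment of the 2431 peaks in that list. The peak lay at chr19:1383372-1384338 (hg38), with its summit in an untranslated exon of NDUFS7 27 bp upstream of the nearest TSS, and no other protein-coding TSS lay within 1 kb. In order of time its fold enrichment was 40.5, 10.1, 2.94 and 16.8. The summit held 145 fragments without Dox (95% Poisson interval 122 to 171). After 24 h it held 28 (18.6 to 40.5), after 48 h it held 24 (15.4 to 35.7) and after 72 h it held 121 (100 to 145). The fragment counts were thus high in the first and last lists and low in the middle ones, and the intervals of the first and last overlap while neither meets those of 24 h and 48 h. The local background used by the peak caller at this site was 2.61, 1.86, 7.51 and 6.25 fragments in the same order, so part of the lower fold enrichment at 48 h and 72 h lies in the denominator. Divided by the genome background of each library, the summit counts were 97.2, 19.7, 8.44 and 60.3, and on this scale the intervals of the first list (82.1 to 114) and the last (50.1 to 72.1) do not meet. Downstream of the summit, in the first exon, lies the YY1 consensus AAGATGGC, whose ATG is the start codon of the gene, and it is in capitals in this stretch of the plus strand at chr19:1383913-1383942.
NDUFS7: aggccgaggccAAGATGGCggtgctgtcag

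NDUFB3, an accessory subunit of the membrane arm, had a fold enrichment of 23.5 without Dox, 4.08 at 24 h and 10.3 at 72 h, with no peak at 48 h. Its summits held 76 (59.9 to 95.1), 14 (7.65 to 23.5) and 49 (36.3 to 64.8) fragments. The first list was again the highest. Among the lists with a peak 24 h was the lowest, with no overlap between its interval and the others. Divided by the genome background, the count at 72 h was 0.479 times that without Dox, and the intervals of 24.4 (18.1 to 32.3) and 51.0 (40.2 to 63.8) do not meet, while those of the counts as such overlap. The peak without Dox lay at chr2:201071424-201072422, in a window shared with the TSS of HYCC2, and the peak cannot be assigned to one gene over the other. The sequence under this summit is shown because it holds the AP-1 consensus TGANTCA (in capitals) and no match to the TEAD consensus CATTCC, and it lies on the plus strand at chr2:201071845-201072000, which ends 1 bp upstream of the TSS.
NDUFB3: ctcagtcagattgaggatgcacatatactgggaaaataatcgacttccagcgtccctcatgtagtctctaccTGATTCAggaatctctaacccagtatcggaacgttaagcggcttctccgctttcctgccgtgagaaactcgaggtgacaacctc

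NDUFS3, a core subunit of the hydrophilic arm, was called without Dox at a fold enrichment of 17.1 and at 72 h at 22.8. Its summit counts were 85 (67.9 to 105) and 116 (95.9 to 139) fragments, whose intervals overlap, and divided by the genome background they had a ratio of 1.01 between the lists. The TSS of PTPMT1, KBTBD4 and CELF1 each lie within 1 kb of a TSS of NDUFS3. The annotated TSS of NDUFS3 spread from the gene start at 47565336 to at least the canonical TSS at 47579074. Which of these neighbours lie near this peak, at chr11:47578698-47579323, was not examined. The annotated TSS nearest to the summit without Dox is not the canonical one. The bases from 52 to 1 bp upstream of that nearest TSS, at chr11:47578977-47579028 on the plus strand, hold the summit. In capitals they show the ETS consensus CCGGAAG together with CCGCCC, the SP/KLF consensus GGGCGG on the opposite strand, which share letters.
NDUFS3: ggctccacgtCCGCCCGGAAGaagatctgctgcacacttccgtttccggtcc

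NDUFC2, a membrane arm subunit, shared its peak with the read-through gene NDUFC2-KCTD14, at chr11:78079529-78080319. The fold enrichment was 14.6 without Dox and 5.89 at 72 h, and the summits held 69 (53.7 to 87.3) and 45 (32.8 to 60.2) fragments. The intervals of these counts overlap in part, but divided by the genome background they were 46.3 and 22.4, a ratio of 0.485, and the intervals on this scale do not meet. ATP5PF, a subunit of the peripheral stalk of ATP synthase, was the single member outside complex I with a peak without Dox. Its fold enrichment was 10.0 without Dox and 10.3 at 72 h, with 40 (28.6 to 54.5) and 52 (38.8 to 68.2) fragments, so that the levels overlapped, also when divided by the genome background (a ratio of 0.967). The summit without Dox at chr21:25734764-25735784 lay 1 bp from the TSS of ATP5PF in a promoter shared with GABPA, which encodes the DNA-binding subunit of GABP, and an exon of GABPA covers the summit as well. Both stretches below, on the minus strand at chr21:25735066-25735095 and chr21:25735093-25735122, come from this promoter and show an ETS consensus and a YY1 consensus in capitals.
ATP5PF, ETS: tgccaggggacCCGGAAGcacttaccctcc
ATP5PF, YY1: taggcgaagaaAAGATGGCggaggctgtgc

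The remaining 3 members of this set had higher values at 72 h than without Dox. NDUFA12, an accessory subunit of the hydrophilic arm, had a fold enrichment of 7.80 without Dox and 11.3 at 72 h, with 29 (19.4 to 41.6) and 47 (34.5 to 62.5) fragments. NDUFB10, an accessory subunit of the membrane arm, had 5.88 and 13.7, with 21 (13.0 to 32.1) and 87 (69.7 to 107) fragments. NDUFA11, also of the membrane arm, had 4.39 and 9.54, with 15 (8.40 to 24.7) and 65 (50.2 to 82.8) fragments. The intervals of NDUFB10 and NDUFA11 do not meet, while those of NDUFA12 overlap, and both statements hold for the counts divided by the genome background, with ratios of 3.08, 3.22 and 1.21. The window of NDUFA11 holds the TSS of VMAC and of 2 further protein-coding gene models as well, whereas those of NDUFA12 and NDUFB10 hold no other protein-coding TSS. The 94 bases upstream of the TSS of NDUFA12, on the minus strand at chr12:95003749-95003842, are shown for the NRF1 consensus (GCGCA, any base, GCGC) in capitals.
NDUFA12: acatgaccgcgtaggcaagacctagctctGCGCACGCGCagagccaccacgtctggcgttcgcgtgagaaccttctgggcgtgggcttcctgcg

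**Figure D3:**
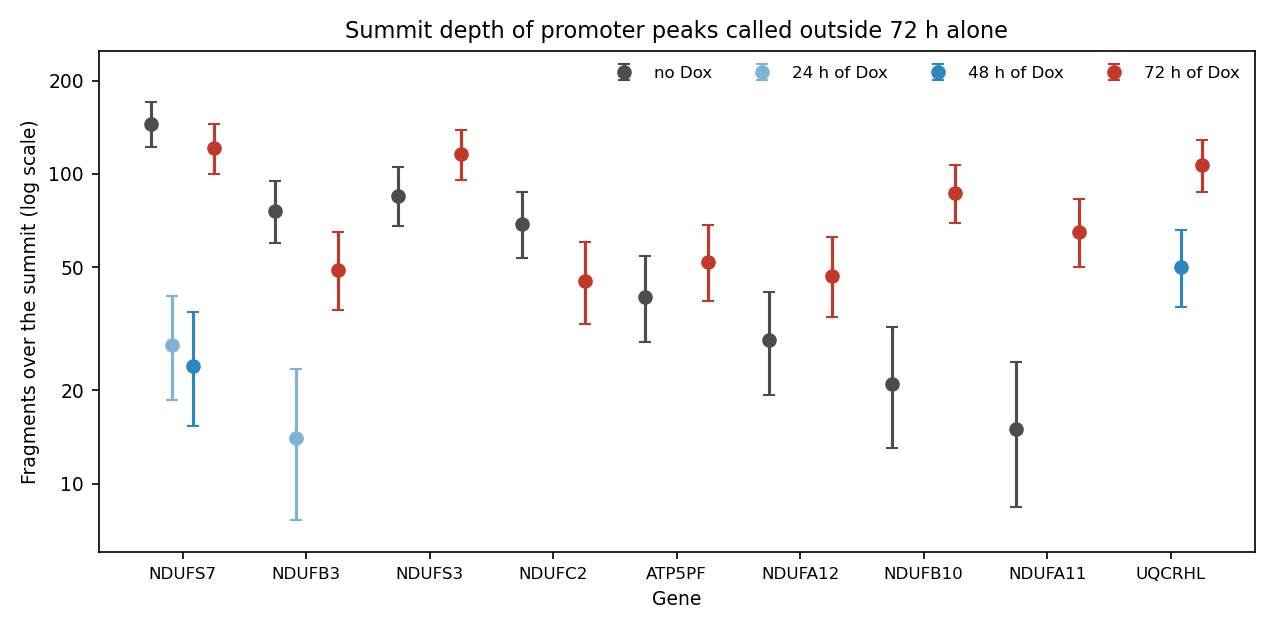
Points give the number of ChIP fragments over the summit of the strongest TSS peak (vertical axis, log scale) and bars its 95% Poisson interval, which covers counting error only and is not scaled for depth, for NDUFS7, NDUFB3, NDUFS3, NDUFC2, ATP5PF, NDUFA12, NDUFB10, NDUFA11 and UQCRHL. Colours stand for the 4 peak lists, and the values of NDUFS7 run from 24 at 48 h to 145 without Dox.

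Set side by side, the fold enrichment at 72 h was lower than without Dox at NDUFS7, NDUFB3, NDUFC2 and NDUFC2-KCTD14, with ratios of 0.416, 0.440, 0.403 and 0.403. It was higher at the other 5 members, with ratios from 1.03 at ATP5PF to 2.33 at NDUFB10. The 4 of 9 with a lower value stand beside 32.3% of all genes called in both lists. The median ratio was 1.03 over the members and 1.35 over all 1630 such genes. With the peak that NDUFC2 and NDUFC2-KCTD14 share counted once, 3 of 8 were lower and the median ratio was 1.18. The members without Dox had a median fold enrichment of 14.6 (12.3 with the shared peak counted once) against 6.06 for all genes with such a peak. In the same list the median was 16.3 over the 20 mitochondrial ribosomal protein genes with a peak and 5.15 over the 13 cytosolic ones. The part of depth in these ratios was not tested, and the genome background of the 72 h library was 1.34 times that of the library without Dox.

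UQCRHL gave the strongest TSS peak of the members at 72 h and was the only one that first appeared at 48 h. It is held to be a processed copy of UQCRH, which encodes the hinge protein of complex III, and lies at chr1:15807169-15809348 on the minus strand. The fold enrichment was 11.7 at 48 h and 29.5 at 72 h, and the summit held 50 (37.1 to 65.9) and 107 (87.7 to 129) fragments. These intervals do not meet, and the counts divided by the genome background were 17.6 and 53.4. The peak at 72 h, at chr1:15808629-15809814, had its summit 119 bp from the upstream of the annotated start sites, and it lay outside the window of the canonical TSS at position 15807649. A distal peak 8372 to 8489 bp from UQCRHL had fold enrichments of 4.86, 6.44, 9.41 and 34.5 in order of time, each higher than the one before. The stretch from the promoter peak at chr1:15809136-15809165, written for the minus strand, carries GGAATG, the TEAD consensus CATTCC on the opposite strand, in capitals.
UQCRHL: aagtcccctctgccccagtgcatGGAATGt

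The highest values at 72 h after UQCRHL were found at genes of several complexes, each without a peak in the other lists unless given above. UQCR10, a small subunit of complex III, had a fold enrichment of 25.6 with 87 fragments (69.7 to 107) at chr22:29766526-29767747, and faces ZMAT5. ATP5MF, a membrane subunit of ATP synthase, shared its peak at chr7:99465655-99466706 with ATP5MF-PTCD1 and PTCD1, with 17.0 and 59 fragments (44.9 to 76.1). NDUFA4 had 15.0 and 77 fragments (60.8 to 96.2) at chr7:10940033-10940979, with its summit 257 bp upstream of the TSS. These 3 loci and UQCRHL were the only members with the TEAD consensus CATTCC within the 201 bp centred on their 72 h summit, and they are shown for it, with the consensus in capitals and, at UQCR10, ATTGG, the NFY consensus CCAAT on the opposite strand. UQCR10 is written for the plus strand at chr22:29767155-29767355, ATP5MF for the minus strand at chr7:99466168-99466320 and NDUFA4 for the minus strand at chr7:10940310-10940510.
UQCR10: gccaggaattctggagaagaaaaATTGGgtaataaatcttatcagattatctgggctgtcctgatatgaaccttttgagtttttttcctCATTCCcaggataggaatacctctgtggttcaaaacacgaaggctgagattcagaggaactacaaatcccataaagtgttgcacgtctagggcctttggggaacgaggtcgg
ATP5MF: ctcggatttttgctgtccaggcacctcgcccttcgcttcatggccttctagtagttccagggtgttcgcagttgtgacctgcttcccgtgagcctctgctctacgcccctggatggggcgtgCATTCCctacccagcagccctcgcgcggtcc
NDUFA4: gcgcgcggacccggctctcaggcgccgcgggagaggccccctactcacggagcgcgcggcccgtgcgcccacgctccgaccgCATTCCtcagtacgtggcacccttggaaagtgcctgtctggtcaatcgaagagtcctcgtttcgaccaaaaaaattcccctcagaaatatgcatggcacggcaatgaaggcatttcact

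NDUFB2, a membrane arm subunit, followed with a fold enrichment of 13.0 and 81 fragments (64.3 to 101), and UQCRH with 12.3 and 73 (57.2 to 91.8). The summit of UQCRH lay 360 bp from its TSS in a window shared with LRRC41. ATP5F1D, the delta subunit of the F1 stalk, had 11.9 with 58 fragments (44.0 to 75.0), and COX7A2L, which takes part in joining complexes III and IV, had 11.2 with 40 (28.6 to 54.5). COX7A2L was the highest of complex IV as counted by symbol, which leaves NDUFA4 (15.0) with complex I. The other 7 peaks of complex IV lay between 3.45 at COX6C and 8.95 at COX7C. In complex II the fold enrichment was 3.41 at SDHA, 4.36 at SDHB, 5.73 at SDHC and 5.93 at SDHD. The lowest members of the list were ATP5F1B, the catalytic beta subunit of ATP synthase, with 3.06 and 19 fragments (11.4 to 29.7), and UQCRC1, a core protein of complex III, with 3.27 and 16 (9.15 to 26.0).

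By complex, the median fold enrichment at 72 h was 6.42 in complex I, 5.04 in complex II, 10.5 in complex III, 4.83 in complex IV and 8.45 in ATP synthase. Over the 67 called members it was 6.42, and over all genes called at 72 h it was 6.78. The members were thus called more often than other genes at 72 h but not at higher fold enrichment, and their largest value of 29.5 was far from the 116 reached among all genes. The 6 genes CCN1, CCN2, ANKRD1, AMOTL2, LATS2 and AXL, held as direct YAP/TAZ targets, give a reference within the same libraries. Over the 4 lists 5, 5, 6 and 6 of them were called, with median fold enrichments of 7.11, 14.2, 19.2 and 38.3. The medians cover the genes called in each list, since CCN2 had no peak without Dox and ANKRD1 none at 24 h. CCN1, AMOTL2, LATS2 and AXL were called in every list with a higher value at each later time, from 5.22 without Dox to 38.7 at 72 h in CCN1, while NDUFS7, the single member called in every list, had its highest value without Dox.

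The 19 members called in no list fell into those with restricted expression and those used by most tissues. The first kind were isoforms known from muscle, heart, testis or hypoxic cells and copies of uncertain use. Of 8 such members 1 was called at 72 h, UQCRHL, and the other 7 were not, namely NDUFA4L2, COX6A2, COX6B2, COX7A1, COX7B2, COX8C and ATP5MGL. Of their 8 broadly expressed partners (NDUFA4, UQCRH, COX6A1, COX6B1, COX7A2, COX7B, COX8A and ATP5MG) 6 were called at 72 h, with a median fold enrichment of 4.83, and COX6B1 and ATP5MG were not. Leaving the restricted members out, 66 of 78 members (84.6%) were called at 72 h, with 8 of 10 in complex IV, 5 of 8 in complex III, 33 of 38 in complex I and 16 of 18 in ATP synthase. Complex IV holds 5 of the restricted isoforms and none of them was called, so leaving them out could only raise its share. The restricted isoforms were listed with earlier results of these data known, and expression in these cells was not analysed. Whether restricted expression accounts for the lower share of complex IV at 72 h was therefore not tested.

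The 12 broadly expressed members without a peak were NDUFA3, NDUFA6, NDUFA8, NDUFB4 and NDUFB8 of complex I, UQCR11, UQCRB and UQCRFS1 of complex III, COX5B and COX6B1 of complex IV, and ATP5F1C and ATP5MG of ATP synthase. UQCRFS1 encodes the Rieske iron-sulfur protein, without which complex III passes no electrons, and its nearest 72 h summit was 393129 bp away. Some uncalled members had a 72 h summit outside the window but within 3 kb of a TSS. The nearest 72 h summit was at 1826 bp from a TSS of ATP5MG (fold enrichment 10.1), at 2311 bp from UQCRB (4.40) and at 2343 bp from ATP5F1C (8.59), and NDUFA4L2 of the restricted kind had one at 2260 bp (3.31). Inside the window, the strongest peaks farthest from a TSS were at NDUFV3 (337 bp), UQCRH (360 bp) and ATP5MC1 (366 bp). These lay well short of the limit of 1 kb. The distance is that of the summit, and the peak near ATP5MG, at chr11:118401241-118403925, is wide enough to cover its TSS, so that by overlap of the interval with the window ATP5MG would be called at 72 h. The windows of NDUFA3, NDUFA6 and COX8C have copies of at least 1999 matching bases of 2001 on alternate sequences of the reference, and the treatment of reads with several equal places is not given. The 3 were called in no list, no other member had such a copy, and its part in the missing peaks was not tested.

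The summits at respiratory chain genes lay closer to the TSS than those at other genes. At 72 h the median distance was 52.0 bp for the members and 88.0 bp for all genes with a TSS peak, and 49 of 67 members (73.1%) against 53.9% of all genes had the summit within 100 bp. Without Dox all 9 members had it within 56 bp, and 55.4% of all genes had it within 100 bp. The median peak width was 986 bp for the members and 1010 bp for all genes at 72 h, and 791 bp and 624 bp without Dox. By annotation, 25 of the 67 summits at 72 h lay upstream of the gene, 22 in untranslated exons, 10 in introns, 6 in coding exons and 4 in exons of non-coding transcripts. At 72 h more than 1 peak within 1 kb of a TSS was found at 6 members (8.96% of those called, against 14.7% of all genes called), namely NDUFC1, NDUFS3, NDUFV2, NDUFV3, ATP5F1A and ATP5F1D.

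**Figure D4:**
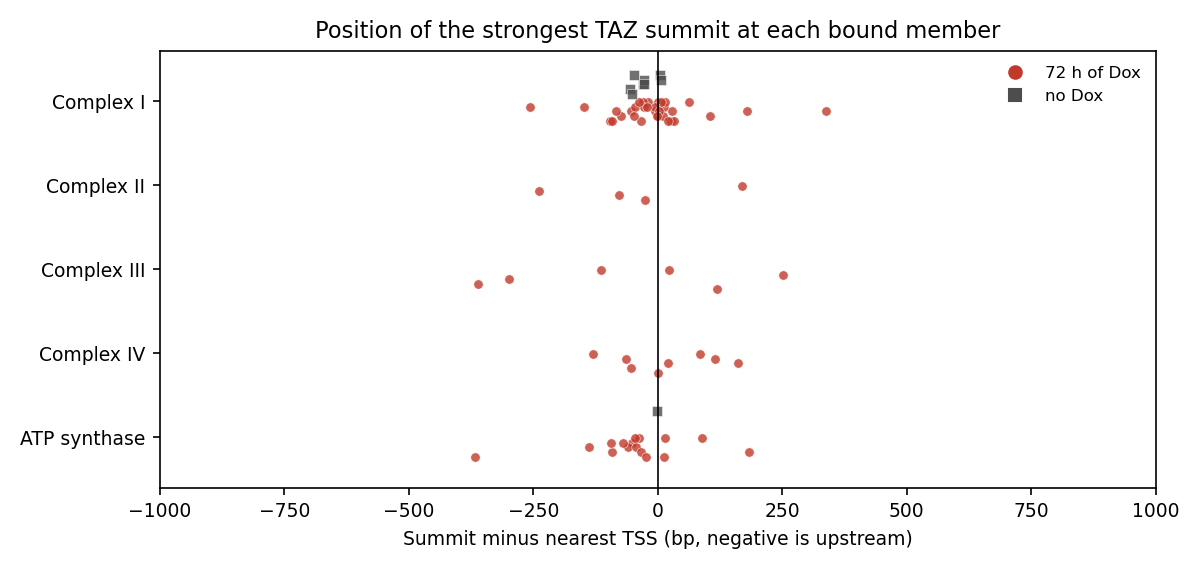
Each point is the summit of the strongest TSS peak of 1 member, by complex, with the distance from the nearest TSS in bp on the horizontal axis and upstream positions negative. Red circles are peaks at 72 h and dark squares peaks without Dox, and all lie between 366 bp upstream and 337 bp downstream although the window reached 1000 bp.

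Many of these promoters are shared with a neighbour. The TSS of another protein-coding gene lay within 1 kb of a TSS of 41 members (47.7%), against 23.3% of all genes. These 41 include NDUFC2 and NDUFC2-KCTD14, whose only such neighbour is each other. They also include ATP5MF and ATP5MF-PTCD1, which count each other beside PTCD1. For ATP5MG, UQCR11 and COX6A1 the only neighbour is an unnamed gene model. At 72 h, 35 of these 41 members (85.4%) were called, and 75.4% of all genes with such a neighbour were. Of the 45 members without a neighbour 32 (71.1%) were called, against 46.9% of all genes without one. Members were thus called more often than other genes in either class, while in members and in other genes alike the shared promoters were called more often. Some pairs are both mitochondrial, such as SDHD with TIMM8B, NDUFS6 with MRPL36 and NDUFB5 with MRPL47, and a TSS peak there counts for both genes.

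The promoters were next searched for consensus sequences of factors known from respiratory genes and of TAZ partners. RefSeq promoter sequences of 300 bases around the gene start (GRCh38.p14) were at hand for 68 of the 86 members and for 15316 protein-coding genes. On either strand, NRF1 sites (GCGCA, any base, GCGC) were in 25.0% of member promoters and 8.62% of all, ETS sites (CCGGAAG) in 27.9% and 14.4%, and YY1 sites (AAGATGGC) in 16.2% and 3.98%. CREB sites (TGACGTCA) were in 7.35% and 2.64%. The SP/KLF consensus GGGCGG (60.3% and 59.2%), the NFY consensus CCAAT (35.3% and 36.6%) and the AP-1 consensus TGANTCA (5.88% and 5.75%) were as frequent as in other promoters, and the TEAD consensus CATTCC was in 7.35% against 11.7%. The letters of NRF1, ETS, YY1 and CREB sites were thus more frequent in member promoters, although most lacked each of them, with matches in 17, 19, 11 and 5 of the 68. No test was run on these shares. Among the members, 10 of 53 promoters with a 72 h peak (18.9%) and 7 of 15 without one (46.7%) held the NRF1 site, whereas ETS sites were in 28.3% and 26.7%. A match is a description of the letters and not evidence that a factor was bound.

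**Figure D5:**
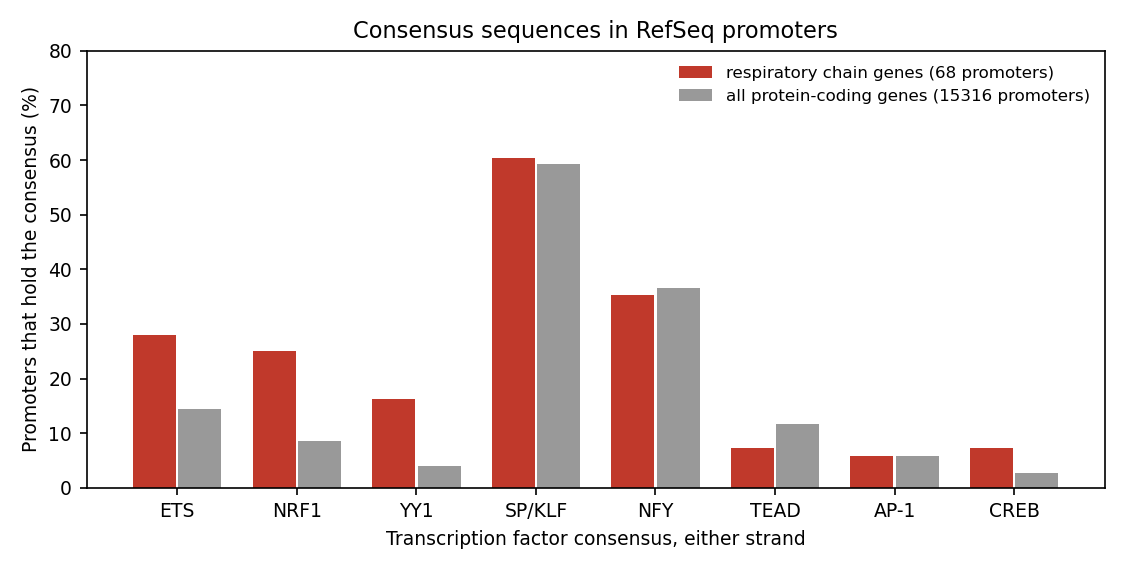
Bars give the percentage of promoters that hold each consensus on either strand, in red for 68 respiratory chain genes and in grey for 15316 protein-coding genes. The red bar is higher for NRF1 (25.0% against 8.62%), ETS, YY1 and CREB, about equal for SP/KLF, NFY and AP-1, and lower for TEAD.

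Under the summits the members and all genes were closer to each other for some of these letters. Within 201 bp centred on the 72 h summit, the NRF1 consensus was at 11.9% of the 67 called members and 6.04% of all called genes, YY1 at 10.4% and 3.99%, ETS at 19.4% and 16.4%, and TEAD at 7.46% and 14.6%. The AP-1 consensus was at 2.99% and 5.62%, CREB at 2.99% and 2.22%, and SP/KLF at 49.3% and 57.1%. None of the 9 summits without Dox held the TEAD consensus, which 9.93% of all TSS summits in that list did, and 45.8% at 24 h and 47.1% at 48 h. The SP/KLF consensus was at 6 of these 9 summits (66.7%, against 55.4% of all in that list), of which 2 are the shared peak of NDUFC2, and the ETS consensus was at 22.2% and 28.1%. Here the only AP-1 match was that of NDUFB3 printed above. With 9 summits these shares are coarse.

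Genes that work with the respiratory chain were counted in the same way. In order of time, the shares of all genes were 8.47%, 1.54%, 5.13% and 53.6%. Of 51 assembly factors, which build the complexes and insert their cofactors, 12 (23.5%) were called without Dox. Over the Dox times 3 (5.88%), 1 (1.96%) and finally 50 (98.0%) were called. The highest without Dox were COA6 and TACO1, both needed for complex IV, with fold enrichments of 21.4 and 19.9, and ATPAF1, an assembly factor of F1, with 17.7. At 24 h COA6 had 3.53 and TACO1 5.98, and at 72 h they had 15.8 and 12.5, which is the order of values seen at NDUFS7 and NDUFB3. These genes were named for their high values without Dox, and the 12 did not share a direction. SDHAF2, SDHAF3, COX15, COX20, SCO1 and COA5 were higher at 72 h than without Dox, and the rest were lower. Of 13 regulators 4 were called without Dox and 12 at 72 h, and none at 24 h or 48 h. PPRC1, a relative of the co-activator PGC-1alpha, had 5.63 and 15.2, YY1 had 7.80 and 9.09, and GABPA had the values of the peak it shares with ATP5PF. NRF1 and TFAM, the packaging factor of mitochondrial DNA, had 10.9 and 7.10 at 72 h alone. The 13 citric acid cycle genes had 3, 0, 1 and 13 peaks in order of time, and 6 subunits outside the symbol patterns, among them COX4I1 (6.20 at 72 h), CYC1 (4.79) and NDUFAB1 (5.14), had 0, 0, 0 and 5.

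Ribosomal protein genes offer a comparison with other large housekeeping families. Of the 78 mitochondrial ribosomal protein genes 25.6% had a TSS peak without Dox and 91.0% at 72 h, and of the 83 cytosolic ones 15.7% and 80.7%. The 10.5% and 77.9% of the respiratory chain genes were below those of both families in both lists. Complex I alone, counted by symbol, had 20.5% and 84.6% and lay between both families. The difference at 24 h and 48 h was small, with 2 and 4 mitochondrial and 4 and 6 cytosolic ribosomal genes called.

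Distal peaks were few. A summit between 1 and 100 kb from a TSS of a member that was its nearest protein-coding gene was found for 1 member without Dox (1.16%, against 3.88% of all genes), 2 at 24 h (2.33%, against 6.73%), 7 at 48 h (8.14%, against 22.6%) and 19 at 72 h (22.1%, against 41.7%). By this rule the members had distal peaks less often than all genes in each list, as the reverse of their TSS peaks at 72 h. Each distal summit was given to 1 gene only, so a close neighbour can take it. Another protein-coding TSS lay within 1 kb for 47.7% of members and 23.3% of all genes. The part of this in the lower shares was not tested. The strongest at 72 h beside that of UQCRHL was 30394 bp from COX7A1, with a fold enrichment of 6.02 at 24 h, 6.98 at 48 h and 19.3 at 72 h, although COX7A1 had no TSS peak. Near SDHB a summit about 3.5 kb away had 5.96 at 48 h and 15.9 at 72 h, and near NDUFA12 a summit 11460 bp away had 15.8 at 72 h after 6.34 at 48 h. The nearest gene is a convention, and whether these sites act on the member was not measured.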

How the data were processed

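According to the study's methods and the submitters' processing notes, BWA placed the reads on hg38 and MACS2 called peaks for each condition at a false discovery rate of 0.01. Their versions, and whether IgG served as control, were not given in the sources used here. Per the labels, the TAZ and IgG libraries of a condition point to 1 shared list. In the deposited lists the authors give fold enrichment as a ratio (pseudocount 1), −log10 of the p-value and q-value, and the summit offset. Libraries were grouped by title. TSS were those of GENCODE version 44, and a gene keeps the value of its strongest TSS peak. Fragments over each summit were solved from fold enrichment and Poisson p (100% of p-values returned within 0.003 on the −log10 scale). Intervals cover counting error only, and PCR copies are not independent molecules. Median summit counts were 20, 24, 36 and 32 fragments in order of time. The solver was checked on simulated data. Window copies were sought with minimap2 2.31. Sequences were read from hg38 with pysam 0.24.0, in Python 3.11.15, and promoters from the RefSeq table. Values in every list were given for the 10 highest members without Dox and at 72 h, for members called at 24 or 48 h, and for isoform pairs and listed pathway genes. Members and lists were chosen with earlier results of these data known. The alternatives were other windows, thresholds, TSS sets, overlaps and coverage scaling.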

Additional observations from a re-analysis of the deposited data

How the results depend on the processing

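A count was held close when the percentage of genes it stands for stayed within 1.5 times that reported. Of 84 alternatives to the counts and ratios, 72 stayed close to the reported value and 12 moved, of which 11 were counts. The other was the median ratio of fold enrichment between 72 h and no Dox, which went from 1.03 to 1.18 without the read-through genes, an alternative chosen after seeing the data. With −log10 q of at least 5, members called at 24 h fell to 1 (NDUFB3 lost) and at 48 h to 1 (NDUFS7 lost), and complex I to 1 at 24 h and 0 at 48 h. With a window of 3 kb, 4 members were called at 48 h, 2 of them in ATP synthase (ATP5F1C and ATP5MG). With the canonical TSS alone 1 member remained at 48 h, as UQCRHL was lost. Leaving out members that share a window left 3 of 45 without Dox and 2 of 45 at 48 h. NDUFC2 and NDUFC2-KCTD14, which share a window only with each other, were among those left out. Scaling fragments to the lowest coverage with a common threshold, chosen after seeing the data, left 1 member at 48 h (NDUFS7 lost) and 64 at 72 h (74.4%, against 50.8% of all genes, with SDHA, UQCRC1 and ATP5F1B lost). When the intervals had to overlap by 50% of each, 0 of 9 members were called again at 24 h. Counts at 72 h that kept all 86 members lay between 64 and 71. No paired analysis was possible because each condition had 1 TAZ library and the values come from peak lists without a test. The lists at 24 h and without Dox had the lowest genome background, the measure of coverage used here, so absence there is weak evidence. A site needed at least 9 fragments in these lists and at 72 h, and 12 at 48 h, where the genome background was highest.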
